A study of Homo sapiens with 6 samples.

Results

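Notch is a receptor on the cell surface that is cut after a ligand on a neighbouring cell binds it. The freed intracellular part enters the nucleus, joins the DNA-binding protein RBPJ and switches on target genes. HES1, HES4 and HEY1 among these targets encode repressors of transcription, and NRARP encodes a protein that restrains the signal. In the retina the pathway is best known for keeping progenitor cells undifferentiated, with HES1 among its main effectors there.

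The genes described are 10 of this pathway, namely the receptors NOTCH1, NOTCH2 and NOTCH3, the ligands JAG1 and JAG2, the nuclear partner RBPJ, and the targets HES1, HES4, HEY1 and NRARP. Their members on the array were all probe sets whose annotation names 1 of these genes and no other, which gave 26 of the 54613 probe sets that are not controls. Every gene had at least 1, and JAG1 had the most with 6. The array carries short probes near the 3' end of each transcript, grouped into probe sets, and the suffixes _s_at and _x_at mark probe sets whose probes may match several transcripts.

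RNA came from ARPE-19 cells, an established human line derived from retinal pigment epithelium, with 3 arrays per group. The cells were treated for 4 h with SRPIN803 at 10 µM, or with its solvent alone, DMSO at 0.1%. Cells of both groups grew in medium with 10% serum and antibiotics. SRPIN803 blocks the kinases SRPK1, which acts on splicing proteins, and CK2. The comparison asks how transcript levels differ after this short exposure. Whether each replicate was a culture of its own is not in the labels, so a p-value here measures the spread between these arrays, which may be technical.

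Values are the authors' log2 levels, 1 per probe set and array. Levels of different probe sets do not compare amounts of transcript. Where a level is set against the median of all probe sets, this ranks signal only and does not show that a gene was expressed. Array medians ran from 5.255 to 5.275 after SRPIN803 and from 5.249 to 5.268 in DMSO. Of 12 epithelial and pigment cell markers 9 lay above the median level of all probe sets (5.26), with KRT18 at 13.8 and OTX2 at 10.5. The visual cycle genes RPE65 (2.33) and LRAT (2.83) and the pigment gene TYRP1 (3.21) lay below it. Of 7 endothelial markers 2 lay above it, PECAM1 (6.36) and CLDN5 (5.65), with CDH5 at 2.65. Of 5 leukocyte markers 2 lay above it, CD3E (5.59) and AIF1 (5.85), with PTPRC at 2.82. Of 7 fibroblast and smooth muscle markers 6 lay above it, with COL1A1 at 10.4 and ACTA2 at 10.4. Of the 81 probe sets in 5 marker lists 0 passed limma's test and 7 had an unadjusted p under 0.05. Over all probe sets 2.22% passed and 15.6% had an unadjusted p under 0.05. Summed on the linear scale, the leukocyte markers gave 165.4 to 171.1 after SRPIN803 and 148.1 to 156.8 in DMSO. In the same way 6 photoreceptor markers (2 above the median level) gave 242 to 268.9 after SRPIN803 and 225.5 to 233.7 in DMSO. Taken singly, the brightest probe set of each leukocyte marker overlapped between the groups. Among the photoreceptor markers those of PDE6B and CRX were higher on every SRPIN803 array and the rest overlapped. The groups were apart in 21.5% of all probe sets. The part of these 2 lists in the results was not tested. The sums of the epithelial, endothelial and fibroblast lists overlapped between the groups. Within the epithelial list the brightest probe sets of the pigment epithelium factors MITF and OTX2 were higher on every SRPIN803 array. Their log2 changes were 0.35 ± 0.08 and 0.17 ± 0.07 (limma's adjusted p = 0.0675 and 0.295). They were the only 2 of that list's 19 probe sets with an unadjusted p under 0.05 in limma. For the list's other genes the brightest probe sets overlapped between the groups, with log2 changes from -0.18 (RPE65) to 0.34 (TYRP1).

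HES1 is the member whose change passed the test, and its promoter is printed because it carries the letters bound by RBPJ. That of HES4 is set beside it as a related gene that did not pass. Both lines give the 250 bases before the transcript start, 5′ to 3′ on the gene's own strand, from RefSeq on GRCh38.p14. Capitals mark TGGGAA, a core that RBPJ binds. The HES1 stretch is chr3:194135898-194136147 on the plus strand, and that of HES4 is chr1:1000098-1000347 on the minus strand.
HES1: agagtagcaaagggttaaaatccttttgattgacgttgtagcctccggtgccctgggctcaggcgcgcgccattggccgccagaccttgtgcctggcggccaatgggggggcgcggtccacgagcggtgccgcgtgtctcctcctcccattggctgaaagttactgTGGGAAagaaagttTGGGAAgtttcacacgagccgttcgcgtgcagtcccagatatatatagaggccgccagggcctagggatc
HES4: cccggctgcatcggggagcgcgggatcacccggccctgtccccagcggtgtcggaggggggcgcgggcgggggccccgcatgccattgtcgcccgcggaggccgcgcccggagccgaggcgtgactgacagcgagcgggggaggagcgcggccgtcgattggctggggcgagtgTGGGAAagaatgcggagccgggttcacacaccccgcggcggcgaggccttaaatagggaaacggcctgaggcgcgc

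The HES1 promoter holds 2 copies of TGGGAA on the gene's strand, which begin 84 and 70 bases before the start. HES4 holds 1 copy, 76 bases before its start. Only exact copies of TGGGAA were counted. Sites of RBPJ with other letters would be missed, so these counts are not numbers of RBPJ sites. At least 1 copy on either strand, as TGGGAA or TTCCCA, occurred in 20.85% of the 35116 promoters of that length, and 2 or more on the same strand in 1.70%. RefSeq promoter entries matched 9 of the 10 genes. Those of NOTCH1, NOTCH2, NOTCH3, JAG1, JAG2 and NRARP held no copy in these 250 bases, and RBPJ, with 5 entries, held 2 copies on opposite strands in 1 of them. HES proteins bind the letters CACNAG, the N box, and HES1 is known to repress its own gene. HES1 held 3 N boxes (CACNAG or CTNGTG), which begin 165, 132 and 58 bases before the start and do not overlap the TGGGAA copies. NOTCH3 and 1 of the RBPJ entries held 1 N box each, and the other entries of the members held none. At least 1 match on either strand was found in 32.04% of all promoters, and 2 or more on the same strand in 3.65%. These matches describe the letters and show no binding in these cells.

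HES1 was higher after SRPIN803, and no other member passed the threshold. Both HES1 probe sets with a level above the median of all probe sets rose, by 1.65-fold and 1.40-fold. NRARP was higher on every SRPIN803 array by a smaller amount, 1.19-fold, and did not pass. The receptors, ligands, HEY1 and HES4 gave log2 changes between -0.22 and 0.16, none past the threshold. In limma's test, adjusted over all probe sets and called at an adjusted p under 0.05, 2 of the 26 members were called, both higher. Over all probe sets 2.22% were called, 1.19% higher and 1.03% lower. At an unadjusted p under 0.05 the members' share, 15.4% (4 of 26), lay beside 15.6% over all probe sets. The groups did not overlap in 6 members (23.1%), against 21.5% of all probe sets, so that share is near the share of all probe sets. Of the 26 members 21 lay at or above the median level. Among all probe sets at or above it 3.83% were called, 22.1% had an unadjusted p under 0.05 in limma and 31.3% did not overlap. The median log2 change was -0.03 for the members and 0.01 for all probe sets.

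**Figure D1:**
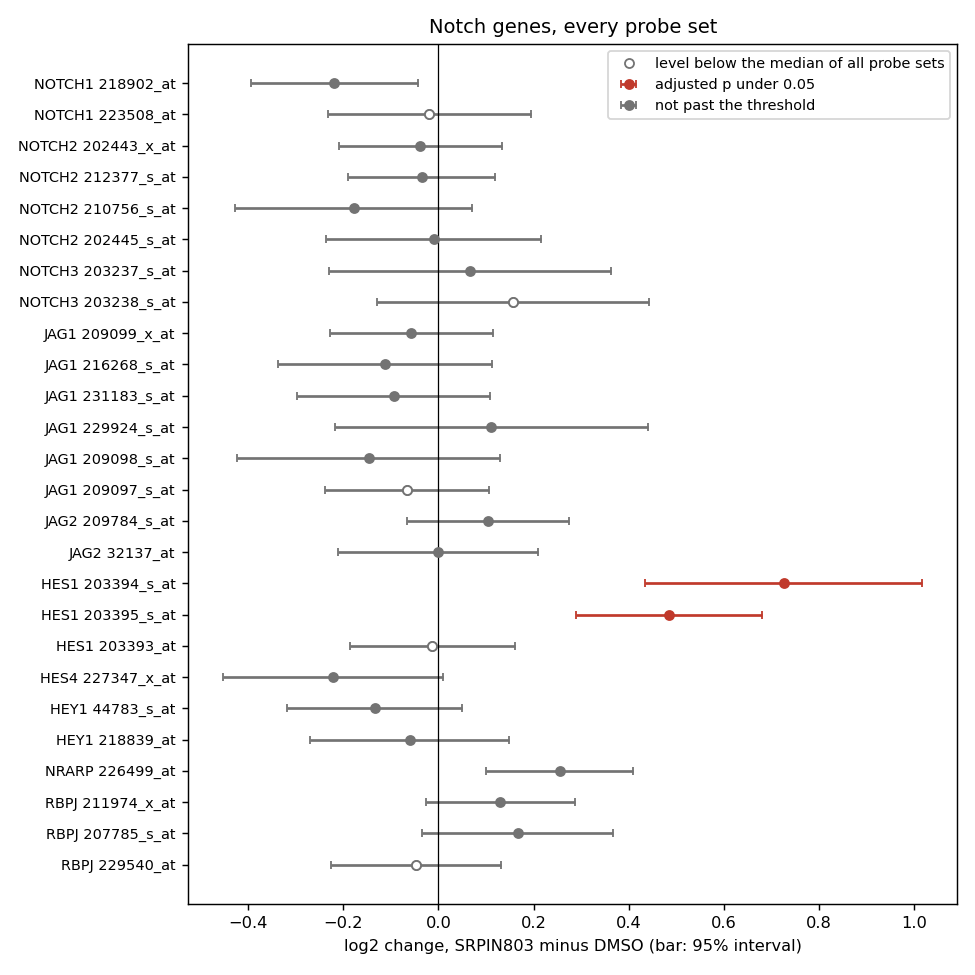
Log2 change, SRPIN803 minus DMSO, of each of the 26 probe sets, with limma's 95% interval as a bar; red marks an adjusted p under 0.05 and open circles mark levels below the median of all probe sets. The 2 red points are HES1 at 0.73 and 0.48, and NRARP at 0.26 and NOTCH1 218902_at at -0.22 are the 2 other probe sets whose interval leaves out 0.

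HES1, the repressor at the head of the target list, was read by 3 probe sets. Probe set 203394_s_at read 7.09, 6.71 and 6.80 in SRPIN803 replicates 1 to 3, against 6.32, 6.12 and 5.98 in DMSO replicates 1 to 3. The lowest SRPIN803 array lay above the highest DMSO array. The means were 6.87 ± 0.20 after SRPIN803 and 6.14 ± 0.17 in DMSO (SD, n = 3 each). The log2 change was 0.73 ± 0.13 (SE), a fold of 1.65 with a 95% interval of 1.35 to 2.02, and limma's adjusted p was 0.0314. In bulk RNA, more cells with HES1 transcripts and more of them per cell cannot be told apart.

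The second HES1 probe set moved the same way. Probe set 203395_s_at read 6.57, 6.39 and 6.60 after SRPIN803, against 5.98, 5.99 and 6.12 in DMSO. Here too the groups were apart. Its means were 6.52 ± 0.11 after SRPIN803 and 6.03 ± 0.08 in DMSO (SD, n = 3 each), and its log2 change was 0.48 ± 0.08 (fold 1.40, 95% interval 1.22 to 1.60, limma's adjusted p = 0.0313).

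The third HES1 probe set, 203393_at, was among the dimmest on the array, at the 6.41st percentile of levels. It read 2.69, 2.54 and 2.53 after SRPIN803, against 2.64, 2.54 and 2.61 in DMSO, and the groups overlapped, with a log2 change of -0.01 ± 0.08. The 2 brighter probe sets did not differ from each other in size of change past the threshold (limma's diffSplice, adjusted p = 0.469 over 5535 genes). In the same test with dim and _x_at probe sets kept, which adds 203393_at, HES1 was called as changing unequally (adjusted p = 0.0184). The share of all genes called under that setting is not given here.

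**Figure D2:**
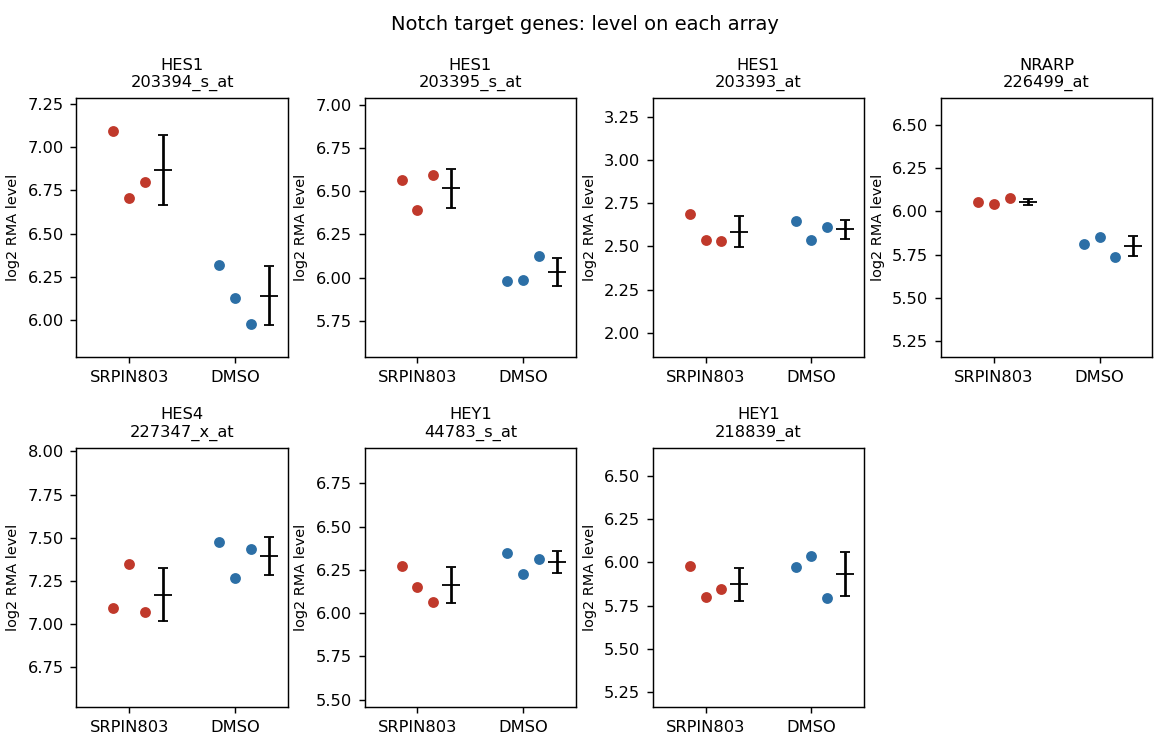
Log2 level on each array for the probe sets of the target genes, SRPIN803 in red and DMSO in blue, with the group mean and SD in black; each panel spans the same 1.5 log2 units. The groups are apart in the 2 brighter HES1 probe sets and in NRARP, and overlap in HES1 203393_at, HES4 and HEY1.

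The HES1 call depended on which arrays were included. With any 1 array left out, the change of 203394_s_at stayed between 0.61 and 0.82 and that of 203395_s_at between 0.45 and 0.55. Both kept the call only without SRPIN803 replicate 2. Leaving out SRPIN803 replicate 1 or 3 or any DMSO replicate left both above 0.05, with adjusted p of 0.0636 to 0.127 for 203394_s_at and 0.0870 to 0.130 for 203395_s_at. Over the whole table the number of calls also fell with 1 array left out, from 1214 to between 215 and 716. The exact permutation test of 3 arrays against 3 cannot go below p = 0.1 and was not used.

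**Figure D3:**
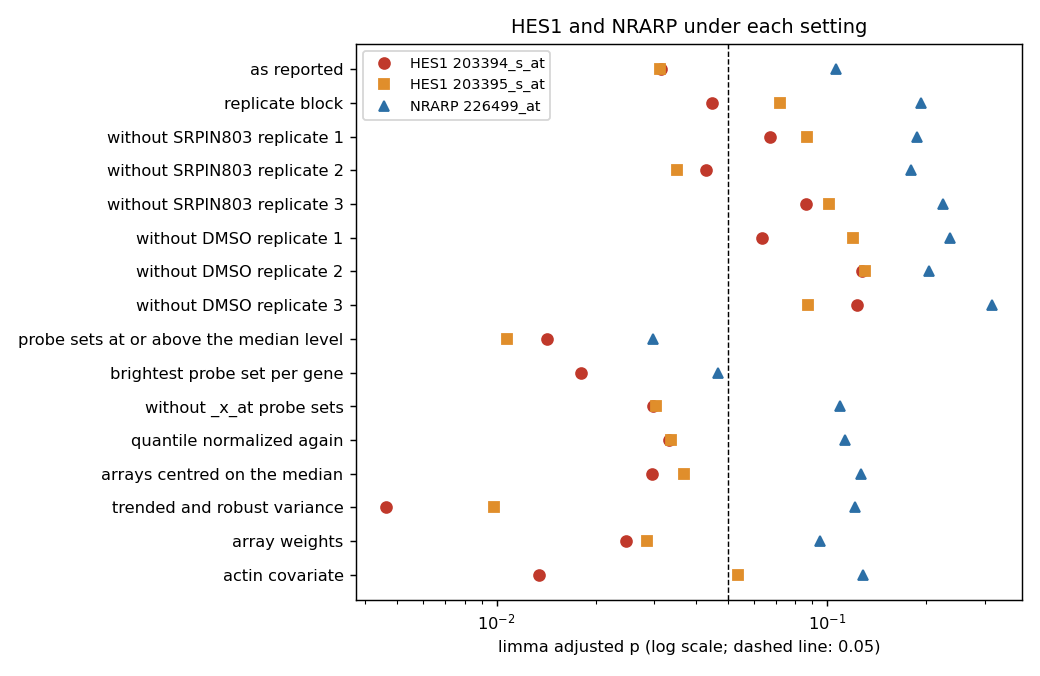
Limma's adjusted p (log axis, dashed line at 0.05) of both brighter HES1 probe sets and of NRARP, as reported in the top line and under each alternative below it. Leaving out SRPIN803 replicate 1 or 3 or a DMSO replicate moves both HES1 points to the right of the line, the replicate block and the actin covariate move 203395_s_at alone, and NRARP crosses to its left among probe sets at or above the median and with the brightest per gene.

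A sign of RNA and labelling quality moved with 203394_s_at within the groups. The difference between the 5' and 3' actin control probe sets was -2.16, -1.46 and -1.67 in SRPIN803 replicates 1 to 3 and -1.99, -1.90 and -1.41 in DMSO replicates 1 to 3. Its group means were -1.76 ± 0.36 after SRPIN803 and -1.77 ± 0.31 in DMSO (log2, SD, n = 3 each). In each group the array with the lowest difference had the highest 203394_s_at level, which was not so for 203395_s_at. With this difference as a covariate, added after seeing the data, the log2 change was 0.73 (adjusted p = 0.0134) for 203394_s_at and 0.48 (adjusted p = 0.0538) for 203395_s_at.

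NRARP, a small ankyrin repeat protein that binds the Notch complex and limits it, had 1 probe set. It read 6.05, 6.04 and 6.07 after SRPIN803, against 5.81, 5.85 and 5.74 in DMSO. The SRPIN803 arrays were close together and lay above every DMSO array. The log2 change was 0.26 ± 0.07 (fold 1.19, 95% interval 1.07 to 1.33) with an adjusted p of 0.107, so NRARP did not pass. It passed under 2 of the alternatives that test fewer probe sets, among those whose level reached the median (adjusted p = 0.0298) and with the brightest probe set of each gene (adjusted p = 0.0467).

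HES4, a relative of HES1, read 7.10, 7.35 and 7.07 after SRPIN803, against 7.47, 7.27 and 7.44 in DMSO. SRPIN803 replicate 2 lay within the DMSO range and the other SRPIN803 arrays below it. The log2 change of its 1 probe set was -0.22 ± 0.10 (95% interval -0.45 to 0.01, adjusted p = 0.342). This probe set ends in _x_at, so related transcripts may add to its signal.

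HEY1, the hairy-related repressor best known from vessels and heart, had 2 probe sets whose groups overlapped. Probe set 44783_s_at read 6.27, 6.15 and 6.06 after SRPIN803, against 6.35, 6.22 and 6.31 in DMSO, a log2 change of -0.13 ± 0.08 (adjusted p = 0.492). Probe set 218839_at changed by -0.06 ± 0.09 (adjusted p = 0.827). The 95% intervals of both lay between -0.32 and 0.15, which leaves room for a fold between 0.802 and 1.11. Whether the change of HES1 differs from those of HEY1, HES4 and NRARP was not tested.

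RBPJ, the DNA-binding partner of all Notch receptors, read 10.74, 10.64 and 10.75 on probe set 211974_x_at after SRPIN803, against 10.57, 10.61 and 10.56 in DMSO. The groups were narrowly apart, and the log2 change was 0.13 ± 0.07 (adjusted p = 0.421). On 207785_s_at the levels were 10.45, 10.32 and 10.44 after SRPIN803, against 10.09, 10.33 and 10.29 in DMSO, and the groups overlapped (log2 change 0.17 ± 0.09, adjusted p = 0.419). The third probe set, 229540_at, lay at 3.48, below the median level, and changed by -0.05 ± 0.08. RBPJ was thus not past the threshold on any of its 3 probe sets, and their intervals reached from -0.23 to 0.37.

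**Figure D4:**
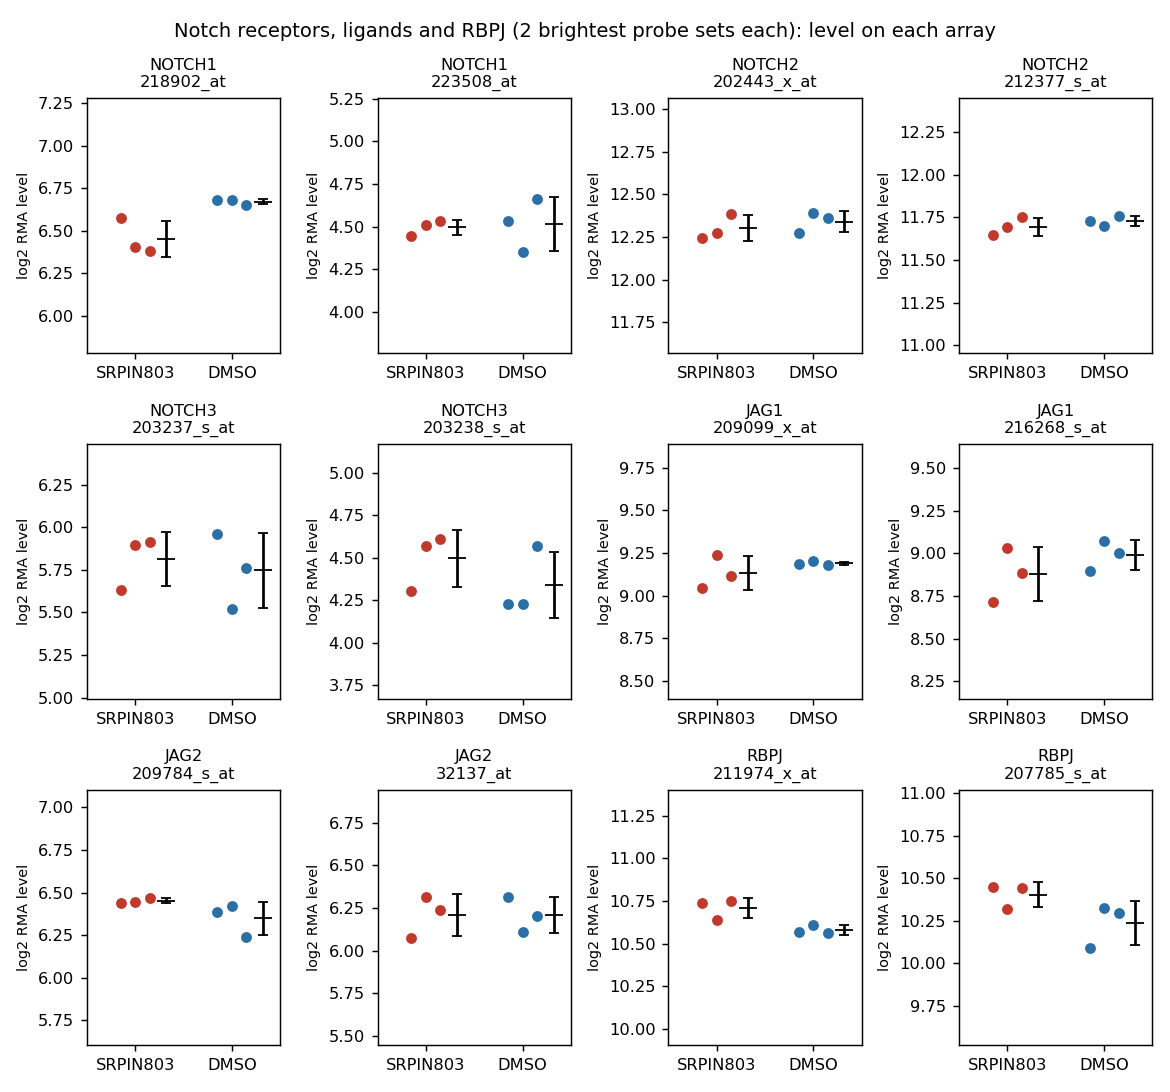
Log2 level on each array for the 2 brightest probe sets of each receptor, each ligand and RBPJ, SRPIN803 in red and DMSO in blue, with the group mean and SD in black; each panel spans the same 1.5 log2 units. NOTCH1 218902_at lies lower on every SRPIN803 array, JAG2 209784_s_at and RBPJ 211974_x_at higher, each by a small margin, and the groups overlap in the other panels.

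Among the receptors 0 of 8 probe sets were called, and 1 had an unadjusted p under 0.05. NOTCH1, the receptor of T cell development and many epithelia, read 6.57, 6.40 and 6.38 on 218902_at after SRPIN803, against 6.68, 6.68 and 6.65 in DMSO. The groups were apart, with SRPIN803 lower. The log2 change was -0.22 ± 0.08 (fold 0.859, 95% interval 0.761 to 0.970, unadjusted p = 0.0209 and adjusted p = 0.210 in limma), so it did not pass. Its dimmer probe set, 223508_at at a level of 4.50, changed by -0.02 ± 0.09, and the test of unequal probe sets, run with dim and _x_at probe sets kept, gave an adjusted p of 0.484 for NOTCH1.

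NOTCH2, a receptor with wide expression in epithelia, had 4 probe sets above the median level and overlapping groups in each. Probe set 212377_s_at read 11.64, 11.69 and 11.75 after SRPIN803, against 11.73, 11.70 and 11.76 in DMSO (log2 change -0.04 ± 0.07, adjusted p = 0.871). On 202443_x_at the levels were 12.24, 12.28 and 12.39 after SRPIN803, against 12.27, 12.39 and 12.36 in DMSO (-0.04 ± 0.07). The 2 dimmer ones, 210756_s_at and 202445_s_at, changed by -0.18 ± 0.11 and -0.01 ± 0.10. The 95% intervals of the 4 lay between -0.43 and 0.22. The human genome also holds NOTCH2NL genes that copy the start of NOTCH2, so how far their transcripts add to these signals is uncertain.

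NOTCH3, the receptor best known from vascular smooth muscle, had overlapping groups on both of its probe sets. It read 5.63, 5.90 and 5.91 on 203237_s_at after SRPIN803, against 5.96, 5.52 and 5.76 in DMSO (log2 change 0.07 ± 0.13, adjusted p = 0.874). The other probe set, 203238_s_at, lay below the median level and changed by 0.16 ± 0.12 (adjusted p = 0.629). The 95% intervals of both lay between -0.23 and 0.44.

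Among the ligands 0 of 8 probe sets were called and 0 had an unadjusted p under 0.05 in limma. JAG1, the main ligand of NOTCH2 in development, had 6 probe sets, of which 5 had lower and 1 had higher means after SRPIN803. The brightest, 209099_x_at, read 9.05, 9.24 and 9.11 after SRPIN803, against 9.19, 9.20 and 9.18 in DMSO (log2 change -0.06 ± 0.07, adjusted p = 0.794). The next, 216268_s_at, read 8.72, 9.03 and 8.89 after SRPIN803, against 8.90, 9.07 and 9.01 in DMSO (-0.11 ± 0.10, adjusted p = 0.666). The groups overlapped in all 6, log2 changes ran from -0.15 to 0.11, and the test of unequal probe sets, which covered 4 of the 6, gave an adjusted p of 0.705.

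JAG2, the second Jagged ligand, had 2 probe sets above the median level. Probe set 209784_s_at read 6.44, 6.44 and 6.47 after SRPIN803, against 6.39, 6.42 and 6.24 in DMSO, so that the groups were narrowly apart (log2 change 0.10 ± 0.07, adjusted p = 0.580). Probe set 32137_at overlapped and changed by -0.0004 ± 0.090. Over all genes with 2 or more eligible probe sets the test of unequal probe sets called 3.36%. It called 0 of the 5 members it covered (NOTCH2, JAG1, JAG2, HES1 and HEY1), with adjusted p from 0.469 to 0.799 and 0 of them at an unadjusted p under 0.05.

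The 24 member probe sets that were not called had 95% intervals between -0.45 and 0.44 on the log2 scale, that is ratios of 0.731 to 1.36. RMA brings the arrays to 1 distribution, so a shift of all transcripts per cell would not be seen in these values.

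The other genes came from 6 lists of textbook pathway members and of relatives of the HES and HEY genes. They held 70 genes in all, of which 63 had a probe set naming them alone and 7 were not analysed here. Of their 152 probe sets 1 was higher and 1 lower past the threshold, 1.32% against the 2.22% over all probe sets, and the median log2 change was -0.0017. The higher one, of BHLHE41, was in the list of other HES and HEY genes (1 of 16 probe sets), where it stands as a structural relative. The lower one was in that of RBPJ cofactors (1 of 44).

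BHLHE41, the clock-linked repressor also called DEC2 and a structural relative of the HES proteins, read 9.67, 9.65 and 9.96 on 221530_s_at after SRPIN803, against 9.09, 9.17 and 9.14 in DMSO. The groups were apart. The log2 change was 0.63 ± 0.10 (fold 1.54, 95% interval 1.32 to 1.80, limma's adjusted p = 0.0219). Its 3 other probe sets lay below the median level and changed by -0.04 to 0.14. Without any 1 DMSO replicate the call was lost (adjusted p of 0.0873 to 0.0952).

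L3MBTL3, which is known to bind RBPJ and help silence its targets, read 5.66, 6.08 and 5.76 on its 1 probe set after SRPIN803, against 6.50, 6.55 and 6.63 in DMSO. The groups were apart. L3MBTL3 fell, with a log2 change of -0.73 ± 0.11 (fold 0.604, 95% interval 0.503 to 0.726, limma's adjusted p = 0.0233). The call was lost without SRPIN803 replicate 1 or 3 or any DMSO replicate (adjusted p of 0.0598 to 0.107), and the change stayed between -0.85 and -0.64.

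**Figure D5:**
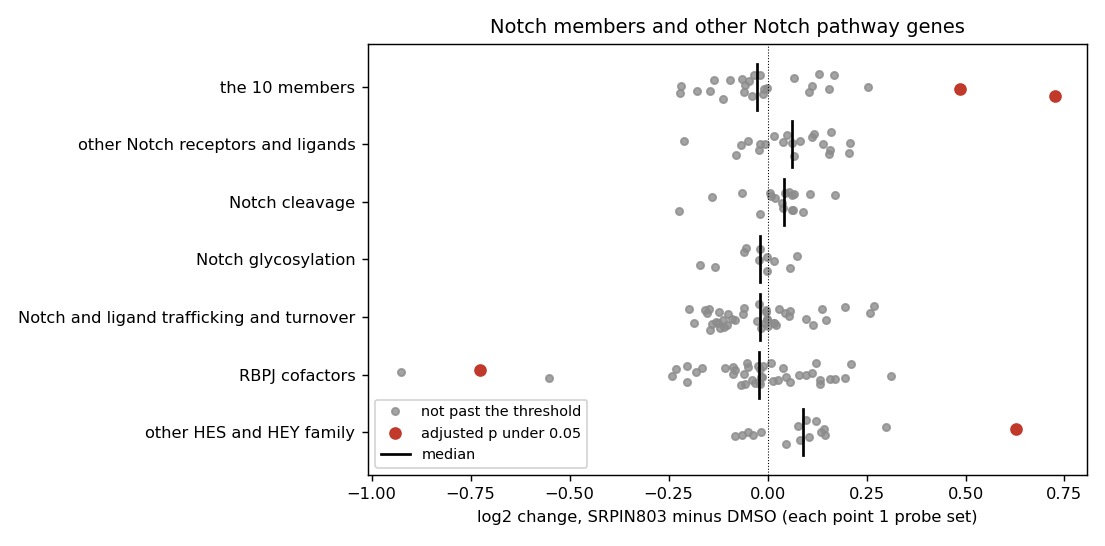
Log2 change, SRPIN803 minus DMSO, of each probe set of the 10 members and of the 6 lists of other Notch pathway genes, with the list's median as a black line and red for an adjusted p under 0.05. Red points are HES1 (2 probe sets), L3MBTL3 and BHLHE41, and the list medians lie between -0.03 and 0.09.

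The remaining 4 lists held no called probe set in limma, and each gene below is given first by the probe set whose p placed it among the 2 smallest of its list. Among other receptors and ligands 1 of 21 had an unadjusted p under 0.05. It was 230568_x_at of DLL3, a ligand that does not activate the receptors, at 0.21 ± 0.07 (adjusted p = 0.199), while the 3 other DLL3 probe sets lay between -0.07 and 0.15. DLK1, a related ligand, was at 0.16 ± 0.07 on 209560_s_at (0.365) and at 0.11 on its other probe set. Among the cleavage enzymes, which free the intracellular part of the receptor, 2 of 18 had an unadjusted p under 0.05. The gamma-secretase subunit APH1B was at 0.17 ± 0.07 on 221036_s_at (0.265) and at 0.07 on its other probe set. The protease subunit PSEN2 was at -0.22 ± 0.09 on 211373_s_at (0.271), against -0.14 and 0.04 on its 2 others. Among the glycosylation enzymes 1 of 11 had one, MFNG at -0.17 ± 0.07 on the dim 204153_s_at (0.313), against 0.07 and -0.02 on its 2 others. LFNG was at -0.13 ± 0.10 on 228762_at (0.608) and at -0.0021 on its other probe set. Among genes of trafficking and turnover 6 of 42 had one, among them 2 of the 5 probe sets of MIB2, a ubiquitin ligase of Notch ligands. These were 241541_at at 0.26 ± 0.07 (0.103) and 226644_at at 0.27 ± 0.09 (0.195), and the other 3 lay at -0.12, 0.15 and 0.10.

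The genes whose pattern over the 6 arrays lay closest to HES1 203394_s_at were RMI2, ZGRF1 and DPY19L2P2. Likeness was the root mean square difference in log2 level after each probe set's own mean was taken away, among the brightest probe sets of 12626 genes whose level reached the median. It was 0.04 for RMI2, 0.07 for ZGRF1 and 0.07 for DPY19L2P2. RMI2 read 8.75, 8.42 and 8.39 after SRPIN803, against 7.95, 7.74 and 7.57 in DMSO. As these genes were picked for their likeness to HES1, their changes are a description only.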

How the data were processed

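The table deposited by the authors holds log2 values made with RMA (background correction, normalization between arrays and summary per probe set), per the submitters' processing notes. The program behind it was not given in the sources used here. RMA compresses changes of dim probe sets. The values were used unchanged, and arrays give no read depth: their number, 3 per group, limits the precision. Of 54675 probe sets 62 controls were left out of the tests. Gene names came from the platform annotation, where 41091 probe sets name 1 gene, 1801 several, and 11721 are unnamed here. Of the first, 41037 matched the RefSeq gene table, with no symbol changed.

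The test was limma 3.58.1 in R 4.3.3 (lmFit, eBayes, group as the only term, two-sided), with Benjamini-Hochberg adjustment over 54613 probe sets and errors given as limma's standard errors. Probe sets of a gene were compared with limma's diffSplice (Simes test) on those whose level reached the median and not ending in _x_at. Both tests were checked on simulated arrays whose noise was independent for each value, which cannot show that the calls hold in these arrays. Members and gene lists were chosen with earlier results of these data known. Members were all described, and pathway genes were named when called or, in lists with none, for the 2 smallest p. Figures used matplotlib 3.10.9.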

Additional observations from a re-analysis of the deposited data

How the results depend on the processing

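With 3 arrays per group the counts of calls depended on single arrays. Leaving out 1 array at a time gave 0 to 2 called member probe sets (2 as reported), 0 to 2 other pathway probe sets (2) and 215 to 716 over the whole table (1214). Same-numbered arrays deviated together with r of 0.136, -0.071 and 0.066 for numbers 1 to 3, not every array was closest to its own number, and the numbers were not taken to pair the arrays. With the replicate block 1 member probe set, 0 pathway probe sets and 304 of all were called. Testing only those whose level reached the median called 5 of 98 pathway probe sets and 3 of 21 members, beside 2667 of 27307 in all. With the brightest probe set per gene, 4 of the 63 pathway genes and 2 of the 10 members were called, beside 1154 of all 19775 genes. A trended and robust variance called 2 member probe sets, 3 of the pathway and 2997 in all. The actin covariate called 1 member probe set, 2 of the pathway and 1058 in all. With dim and _x_at probe sets both kept, 1 member gene, HES1, had unequal probe sets, against 0. That setting covered NOTCH1, NOTCH2, NOTCH3, JAG1, JAG2, HES1, HEY1 and RBPJ. The share of all genes called under it is not given here, so this call has no background beside it. Of the 26 member probe sets 19 kept their sign under every alternative, HES1 203394_s_at and 203395_s_at, NRARP and NOTCH1 218902_at among them. The 7 others were not called under any alternative. With 1 array left out they ranged from -0.102 to 0.056 (NOTCH1 223508_at), -0.084 to 0.078 (NOTCH2 202445_s_at), -0.047 to 0.173 (NOTCH3 203237_s_at), -0.062 to 0.221 (JAG1 229924_s_at), -0.053 to 0.066 (JAG2 32137_at, and 0.0004 with array weights), -0.064 to 0.0145 (HES1 203393_at) and -0.0995 to 0.0057 (RBPJ 229540_at). The causes were not tested, beyond fewer tests or fewer arrays where the alternative itself brings them. Dim probe sets limit what can be read of NOTCH3 and of HES1 203393_at.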

Other observations

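SPEN, a large protein that joins RBPJ when Notch is silent and helps repress its targets, had the largest change of the pathway lists, and it was chosen for mention after its values were seen. Probe set 201996_s_at read 7.88, 6.87 and 7.33 in SRPIN803 replicates 1 to 3, against 8.41, 8.07 and 8.38 in DMSO replicates 1 to 3. The SRPIN803 arrays were all lower and differed among themselves by about as much as the groups did, with a log2 change of -0.93 ± 0.23 and limma's adjusted p of 0.0939. The other 3 SPEN probe sets changed by -0.20 to -0.05.

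TLE1, a corepressor of HES proteins also chosen after its values were seen, read 10.31, 10.36 and 10.30 on 203221_at after SRPIN803, against 9.98, 10.10 and 9.97 in DMSO (log2 change 0.31 ± 0.07, limma's adjusted p = 0.0687). Its 4 other probe sets changed by -0.09 to 0.20.

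A probe set that names NOTCH2 together with its NOTCH2NL copies, 227067_x_at, was outside the members. It read 10.22, 10.41 and 10.34 after SRPIN803, against 10.39, 10.40 and 10.37 in DMSO, with a log2 change of -0.06 ± 0.07 (limma's adjusted p = 0.761).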
